A study of Mus musculus with 2 samples.

Results

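Heat shock and folding chaperones were followed through the cell cycle reporter gates of mouse bone marrow cells. The 10 genes were taken by name from 53272 genes that could be read in the tables: Hsp90aa1, Hsp90ab1, Hsp90b1, Hspa8, Hspa5, Hspa9, Hspd1, Hspe1, Hspa4 and Cct2. All 10 were detected in every gate. The cells came from the bone marrow of C57BL/6 mice aged 8 weeks that carry the Fucci reporter, in which green mAG carried on a geminin fragment marks S, G2 and M phase and orange mKO2 carried on a Cdt1 fragment marks G0 and G1. The gates were mAG+ and mKO2neg, which shared a library, and mKO2low and mKO2high, which shared the other, with 48 cells in each gate and 192 in all. The promoter that drives the reporter, the surface markers of the sort and the number of mice are not stated in the labels. Per the labels' protocols the cells were handled singly by a modified Smart-seq2 method with enrichment of the 3' ends of transcripts. No treatment is named.

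Chaperones hold unfinished or damaged proteins until they fold. HSP70 proteins bind short exposed stretches and release them with ATP, helped by J proteins that start the cycle and by exchange factors such as the HSP110 proteins. HSP90 proteins finish the folding of kinases and steroid receptors, and the chaperonins, HSP60 in mitochondria and CCT in the cytosol, enclose a protein in a barrel. The endoplasmic reticulum (ER) and the mitochondrion each have their own HSP70 and HSP90 proteins, and in the ER the unfolded protein response adjusts their supply. Blood stem cells are known for a low rate of protein synthesis compared with their dividing progeny.

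The deposited row labels were displaced by 1 gene, so each gene was read from the row of the gene just before it in genome order. For the 10 chaperones, the rows so read held 508 to 16250 counts. The rows that carry their own labels held 0 to 476 counts, apart from the row labelled Hspd1 with 2993, which is read as Hspe1. The same held for transcripts that nearly every cell makes: the row before Actb held 25599 counts against 136 in the row labelled Actb, and the row before B2m held 56396 against 0. The mAG+ gate held 2791584 counts, mKO2neg 1608630, mKO2low 1703263 and mKO2high 934036, with median cells of 45177, 24633, 26852 and 14511 counts in that order. In the same order the shallowest cell held 315, 1, 7436 and 0 counts, and 45, 43, 48 and 44 cells held at least 1000. Shares of cells before thinning include these near-empty cells. No cell name occurred in both libraries. Proliferation markers (8 genes) summed to 4711 CPM (a gene's counts scaled to the gate's total, the usual CPM unit) in mAG+, 1012 CPM in mKO2neg, 321 CPM in mKO2low and 223 CPM in mKO2high, which is the order the reporter labels give. The stem cell markers (7 genes) summed to 1088, 1251, 1371 and 1546 CPM in the same order of gates, but the single genes did not share this order. Procr, Ly6a and Mecom were higher in mKO2high than in mAG+, and Hlf, Kit, Cd34 and Slamf1 were lower. The list's median log2 ratio of mAG+ against mKO2high was 0.24, opposite in direction to the sums. Each gate is 1 sample, so no test was made. The 95% intervals of levels and ratios below cover counting error only, since reads amplified by PCR are not independent molecules, and they say nothing of how mice or sorts would differ. Levels were made from 3' end counts and are compared between gates, not between genes.

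Promoter stretches are shown for the members that moved most, the ER pair Hspa5 and Hsp90b1, and for the gene pair Hspe1 and Hspd1, because these hold matches to the consensus motifs of the 2 classical chaperone responses. The windows run from 250 bases before to 50 after a start site in the RefSeq table (GRCm38.p6), which held 6 of the 10 members, and the starts of the stretches are counted from the start site. Capitals mark the motif letters, those of the ER stress element in the Hspa5 and Hsp90b1 stretches and those of the heat shock element in the Hspe1 stretch. In Hspa5 and in the far copy of Hsp90b1 the capitals read CCAAT, then CCACG after 9 further bases.
Hspa5, chr2:34772020-34772048, plus strand: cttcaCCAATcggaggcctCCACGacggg
Hsp90b1 far copy, chr10:86705633-86705661, minus strand: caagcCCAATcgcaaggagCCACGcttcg
Hsp90b1 near copy, chr10:86705528-86705556, minus strand: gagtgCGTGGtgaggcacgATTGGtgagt
Hspe1, chr1:55088054-55088081, plus strand: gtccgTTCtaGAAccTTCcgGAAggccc
The Hspa5 match starts 65 bases before the start site, and the Hsp90b1 matches start 212 and 107 bases before it. The near copy of Hsp90b1 reads as the reverse complement of the motif. In the whole table, 39 of 32851 promoter windows (0.119%), searched on both strands, hold the ER stress element, and 198 (0.603%) hold the heat shock element. The Hspe1 stretch holds 2 overlapping matches, 1 on each strand, the first base of the one on the plus strand lying 84 bases before the start site. Hspe1 and Hspd1 are a divergent gene pair, and the same bases lie in 1 of the 2 Hspd1 windows, where the matches start 139 and 144 bases before that start. The windows of Hspa4 and Cct2 hold neither motif. Letters in a window are a description of the sequence and do not show that a factor binds there. The windows of Hsp90aa1, Hsp90ab1, Hspa8 and Hspa9 were not analysed here.

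The cytosolic HSP90 genes differed between gates to unequal extents. Hsp90aa1, the stress-inducible form, stood at 1576 CPM in mAG+, 939.9 CPM in mKO2neg, 1058 CPM in mKO2low and 873 CPM in mKO2high. The mAG+ gate was highest, and its interval (1530 to 1623 CPM) lay above those of the other 3 gates. The level in mAG+ was 1.68 times that in mKO2neg, a log2 ratio of 0.75 (95% interval 0.66 to 0.83). The median cell held 1289 CPM in mAG+ and 750.3 CPM in mKO2neg, and the lower quartile of mAG+ cells (938 CPM) was above the mKO2neg median. One mKO2neg cell held 24.0% of that gate's Hsp90aa1 counts, and with each gate's deepest cell left out the log2 ratio was 0.96. Between mKO2low and mKO2high the log2 ratio was 0.28 (0.16 to 0.40), with median cells at 831 CPM in mKO2low and 617 CPM in mKO2high.

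Hsp90ab1, the constitutive form, stood at 2312 CPM in mAG+, 2033 CPM in mKO2neg, 2494 CPM in mKO2low and 2438 CPM in mKO2high. The lowest gate was mKO2neg, and the highest, mKO2low, was 1.23 times as high. The log2 ratio was 0.19 (0.12 to 0.25) for mAG+ against mKO2neg and 0.03 (-0.04 to 0.11) for mKO2low against mKO2high. Median cells lay between 1854 CPM in mKO2neg and 2233 CPM in mKO2low, and the quartile ranges of all 4 gates overlapped.

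Hspa8 encodes the constitutive cytosolic HSP70. It stood at 1492 CPM in mAG+, 1158 CPM in mKO2neg, 1447 CPM in mKO2low and 1443 CPM in mKO2high. In gate sums its 3 upper gates were neighbours with overlapping intervals, and mKO2neg was below them. The median cell held 1452 CPM in mAG+, 1185 CPM in mKO2neg, 1126 CPM in mKO2low and 1121 CPM in mKO2high. By median cell mKO2neg was therefore not the lowest gate. The log2 ratio was 0.37 (0.29 to 0.45) for mAG+ against mKO2neg and 0.00 (-0.09 to 0.10) for mKO2low against mKO2high. Hspa8 has 8 near-identical copies elsewhere in the genome, judged by its last 300 bases. The rows read for those copies held 18 counts in all, against 9842 for Hspa8. Reads that match both Hspa8 and a copy could have been left out in counting, so the copies' effect on its level is uncertain.

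Hspa4, an HSP110 protein that exchanges the nucleotide of HSP70, was the sparsest member in counts. It stood at 63.4 CPM in mAG+, 69.0 CPM in mKO2neg, 96.9 CPM in mKO2low and 58.9 CPM in mKO2high. Only mKO2low stood apart from its neighbour in the order of levels. The log2 ratio was -0.12 (-0.47 to 0.23) for mAG+ against mKO2neg and 0.71 (0.27 to 1.19) for mKO2low against mKO2high. A count was found in 34 of 48 mKO2low cells and 12 of 48 mKO2high cells, and in 37.5% (24.0% to 52.6%) and 23.1% (11.1% to 39.3%) of the cells of these gates once each was thinned to 5000 counts. Thinning moved the log2 ratio of mAG+ against mKO2neg to -0.74, past 1.5-fold. With every cell thinned to 5000 counts the log2 ratio of mKO2low against mKO2high was 0.54, and with each gate's deepest cell left out it was 0.50, both under 1.5-fold.

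**Figure D1:**
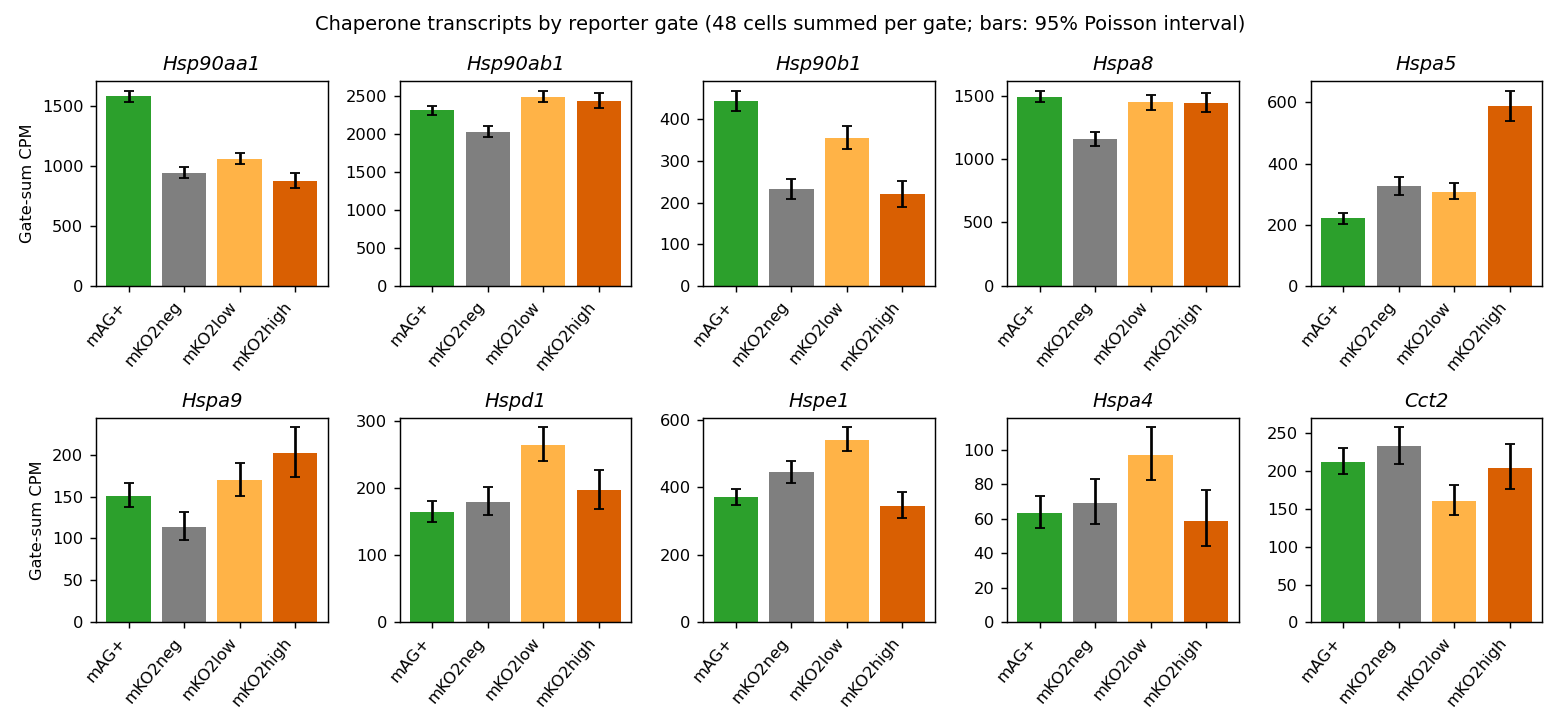
Level of each chaperone gene in the 4 gates, in CPM on axes that start at 0, with bars for gate sums and error bars for exact Poisson 95% intervals of counting error. In these gate sums Hsp90aa1 (1576 CPM) and Hsp90b1 (443 CPM) are highest in mAG+. Hspa5 is highest in mKO2high (587 CPM) and lowest in mAG+ (220.3 CPM). With cells thinned to equal depth, which is not drawn, Hsp90b1 is highest in mKO2low (437.5 CPM, against 404 CPM in mAG+).

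The ER pair ran in opposite directions. Hsp90b1, the HSP90 of the ER (GRP94), which folds integrins and Toll-like receptors, stood at 443 CPM in mAG+, 232 CPM in mKO2neg, 356 CPM in mKO2low and 219 CPM in mKO2high. In each library the gate named first was higher: mAG+ was 1.91 times mKO2neg (log2 0.93, 0.76 to 1.10), and mKO2low was 1.62 times mKO2high (log2 0.70, 0.47 to 0.93). The median cell held 419 CPM in mAG+, 207 CPM in mKO2neg, 294 CPM in mKO2low and 109.7 CPM in mKO2high. The difference between mKO2low and mKO2high depended on depth and on single cells, since its log2 value was 0.57 at 5000 counts a cell and 0.41 with each gate's deepest cell left out. An antisense gene, 1810014B01Rik, covers the 3' end of Hsp90b1. The labels do not say whether counting used strand, so reads of this pair cannot be told apart; 242 counts were read for the antisense gene and 2423 for Hsp90b1.

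Hspa5 encodes BiP, the HSP70 of the ER and a sensor partner of the unfolded protein response. It stood at 220.3 CPM in mAG+, 326 CPM in mKO2neg, 308 CPM in mKO2low and 587 CPM in mKO2high. In gate sums the order was reversed compared with Hsp90b1, with mAG+ lowest and mKO2high highest. The mKO2neg and mKO2low gates were neighbours with overlapping intervals. With cells thinned to equal depth, Hsp90b1 stood at 404 CPM in mAG+, 228 CPM in mKO2neg, 437.5 CPM in mKO2low and 292 CPM in mKO2high. Its highest gate was then mKO2low and its lowest mKO2neg, so the full reversal did not hold at equal depth. Within each library Hsp90b1 and Hspa5 still ran in opposite directions. The Hspa5 log2 ratio of gate sums was -0.56 (-0.73 to -0.39) for mAG+ against mKO2neg, a 1.48-fold difference. For mKO2low against mKO2high it was -0.93 (-1.10 to -0.75), a 1.90-fold difference.

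The Hspa5 counts of mKO2high came from few cells. One cell held 23.7% of them and 3 cells 46.5%, against 13.3% and 35.4% in mKO2low. The median cell held 234 CPM in mKO2high and 163 in mKO2low, beside 198 in mAG+ and 242 in mKO2neg. Without the largest cell of each gate the log2 ratio of mKO2low against mKO2high was -0.74, and with equal weight for each cell it was -0.70. For mAG+ against mKO2neg, equal weight gave -0.30 and thinning to 5000 counts gave -0.27. The upper quartile of Hspa5 was 308 CPM in mAG+, 470.4 CPM in mKO2neg, 415 CPM in mKO2low and 551 CPM in mKO2high, while the lower quartile was 119, 61.1, 74.6 and 27.2 CPM in the same order. The quartile range was widest in mKO2high, the gate with the shallowest cells, and narrowest in mAG+.

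**Figure D2:**
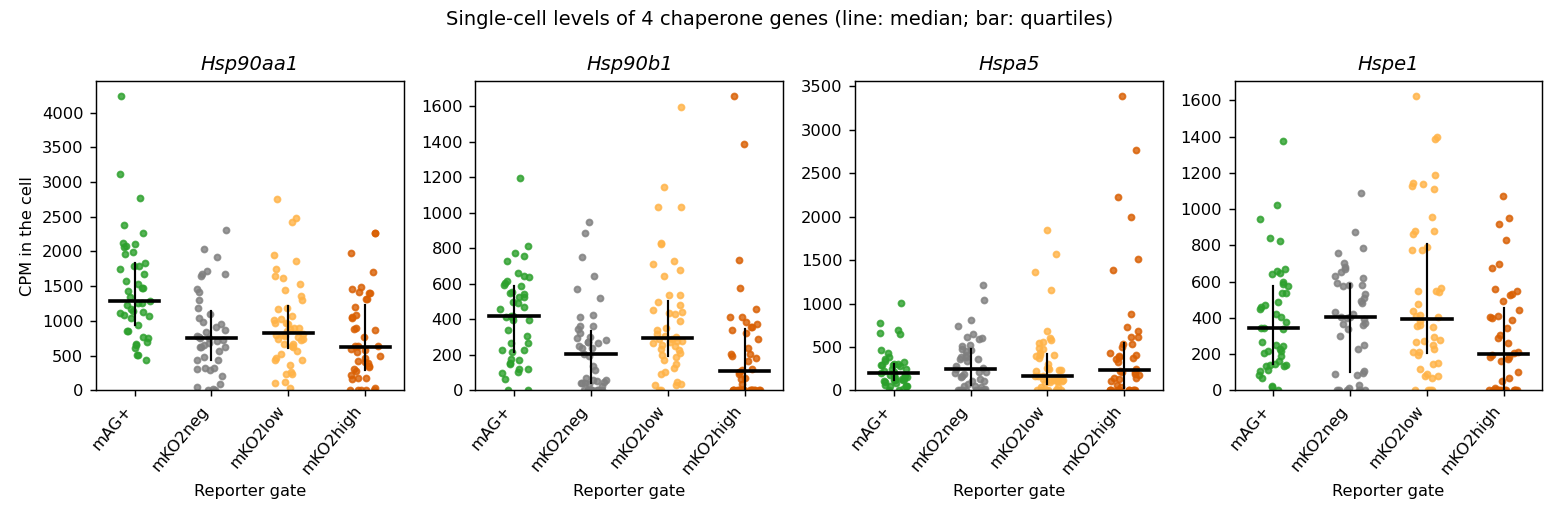
CPM of single cells with at least 1000 counts in the 4 gates for the genes shown, 1 point per cell, with a bar at the median. The 1 mKO2high cell at 3393 CPM of Hspa5 and the mAG+ median of 1289 CPM of Hsp90aa1 stand out.

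The summed level of immediate early genes had mAG+ lowest and mKO2high highest, as Hspa5 had. Their 10 genes summed to 2913 CPM in mAG+, 5079 CPM in mKO2neg, 6638 CPM in mKO2low and 8488 CPM in mKO2high. Of the 9 measured in mAG+ against mKO2neg, 6 were at least 1.5-fold lower in mAG+ and 0 higher, where 24.3% of all genes were lower and 31.2% higher. Of the 10 measured in mKO2low against mKO2high, 3 were lower and 2 higher, close to the 25.2% and 29.4% of all genes. Within a gate at equal depth, the rank correlation of Hspa5 with their sum lay between -0.01 and 0.09 over 39 to 48 cells. Such genes are known to be induced while tissue is taken apart, and their part in the gate differences was not tested. Megakaryocyte markers (5 genes) also stood at 111 CPM in mAG+, 215 CPM in mKO2neg, 181 CPM in mKO2low and 380.1 CPM in mKO2high, and their part was not tested.

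Of the mitochondrial members, Hspa9 encodes mortalin, the matrix HSP70 that also draws proteins in through the inner membrane. It stood at 151 CPM in mAG+, 114 CPM in mKO2neg, 169.7 CPM in mKO2low and 201 CPM in mKO2high. Only mKO2neg stood apart from its neighbour in the order of levels. The log2 ratio was 0.41 (0.16 to 0.67) for mAG+ against mKO2neg and -0.25 (-0.52 to 0.03) for mKO2low against mKO2high. One mKO2high cell held 27.1% of that gate's Hspa9 counts. With each gate's deepest cell left out, the log2 ratio of mAG+ against mKO2neg was 0.08.

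Hspd1 (HSP60) and Hspe1 (HSP10) encode the barrel and the lid of the mitochondrial chaperonin. Hspd1 stood at 165 CPM in mAG+, 180.3 CPM in mKO2neg, 265 CPM in mKO2low and 197 CPM in mKO2high. Hspe1 stood at 370.4 CPM in mAG+, 444 CPM in mKO2neg, 541 CPM in mKO2low and 346 CPM in mKO2high. In gate sums both were highest in mKO2low. For mKO2low against mKO2high the log2 ratio was 0.43 (0.18 to 0.69) for Hspd1 and 0.64 (0.46 to 0.83) for Hspe1. For mAG+ against mKO2neg it was -0.13 (-0.34 to 0.09) for Hspd1 and -0.26 (-0.40 to -0.12) for Hspe1. The gate sums of barrel and lid thus lay on the same side in both libraries, but the Hspd1 interval for mAG+ against mKO2neg included 0. One mKO2neg cell held 21.7% of that gate's Hspd1 counts. The median cell went the other way for Hspd1, at 155 CPM in mAG+ and 113 CPM in mKO2neg. For Hspe1 it held 342 CPM in mAG+, 405 CPM in mKO2neg and 394 CPM in mKO2low, so by median cell mKO2neg was highest. The Hspe1 difference between mKO2low and mKO2high was 0.53 at 5000 counts a cell, under 1.5-fold. The pair shares a promoter region and overlaps at its starts, not at the 3' ends that were enriched.

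Cct2 encodes a subunit of the CCT ring, which folds actin and tubulin. It stood at 212 CPM in mAG+, 232 CPM in mKO2neg, 161 CPM in mKO2low and 204 CPM in mKO2high. Only mKO2low, the lowest, stood apart from its neighbour. The log2 ratio was -0.13 (-0.32 to 0.06) for mAG+ against mKO2neg and -0.34 (-0.62 to -0.07) for mKO2low against mKO2high. In gate sums Cct2 was the one member at its lowest in mKO2low, the gate in which Hsp90ab1, Hspd1, Hspe1 and Hspa4 were highest.

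**Figure D3:**
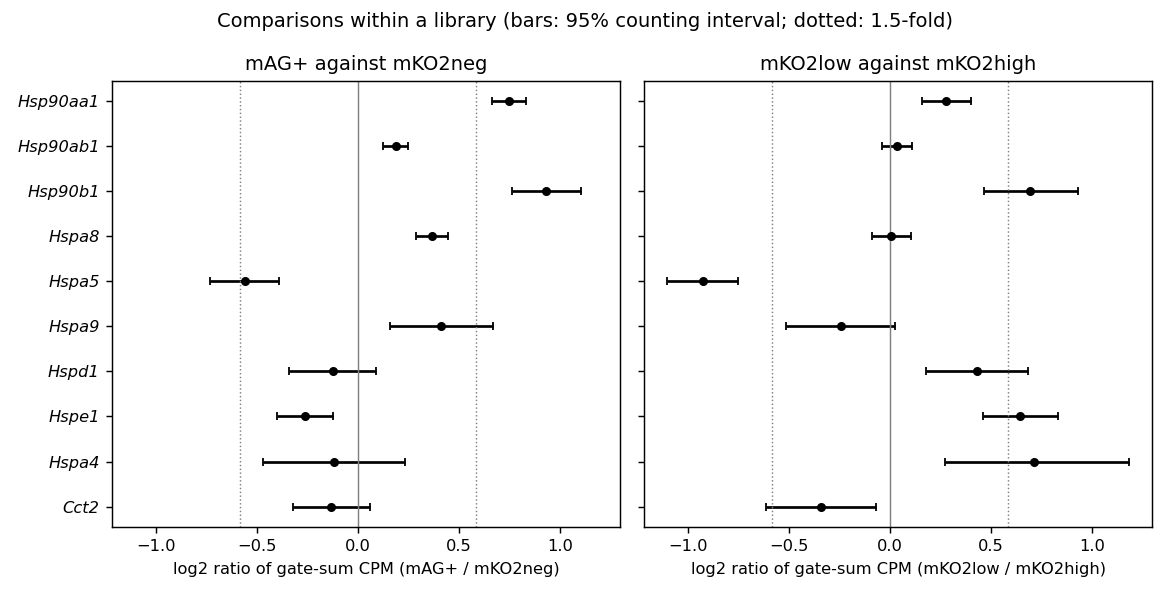
Log2 ratio of gate-sum CPM for each member in mAG+ against mKO2neg and in mKO2low against mKO2high. Exact conditional 95% intervals of counting error and lines at 1.5-fold are shown. Hsp90b1 lies right of 0 in both comparisons within a library (0.93 and 0.70) and Hspa5 left of 0 in both (-0.56 and -0.93).

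The members' differences were set against those of all genes. For mAG+ against mKO2neg, 2 of 10 (Hsp90aa1 and Hsp90b1) were at least 1.5-fold higher and 0 were lower, where 31.2% of 12115 measured genes were higher and 24.3% lower. Among genes with at least 100 counts over both gates, as all members have, these shares were 23.3% and 18.3%. The members' median log2 ratio was 0.03, beside 0.06 for all genes. For mKO2low against mKO2high, 3 of 10 (Hsp90b1, Hspe1 and Hspa4) were higher and 1 (Hspa5) lower, where 29.4% of 10901 genes were higher and 25.2% lower. At 100 counts or more the shares were 18.1% and 18.8%. The members' median was 0.16, beside 0.05 for all genes. Counts of members near these shares are no result about chaperones as a group.

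The remaining comparisons put gates from separate libraries side by side, so gate and library cannot be told apart, and they share gates with the comparisons above. For mKO2neg against mKO2low, 0 of 10 members were at least 1.5-fold higher (25.5% of 11375 genes) and 1, Hsp90b1, was lower at -0.61 (26% of genes), a value of -0.29 with each gate's deepest cell left out. At 100 counts or more these shares were 17.9% and 15.7%. The members' median was -0.31, beside 0.01 for all genes. Cct2 alone had a counting interval above 0, at 0.53 (0.30 to 0.76), and Hspa5 lay at 0.08 (-0.10 to 0.26). At 5000 counts a cell Cct2 was closer between these gates, at 191 CPM in mKO2neg and 171 CPM in mKO2low. For mAG+ against mKO2high, 2 of 10 were higher (35.6% of 11849 genes), Hsp90aa1 at 0.85 and Hsp90b1 at 1.01, and 1 was lower (26.9%), Hspa5 at -1.41. At 100 counts or more the shares were 29% and 21.7%. The Hsp90b1 value there was 0.46 at 5000 counts a cell. The members' median was 0.05, beside 0.12 for all genes.

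Together the 10 genes made up 0.701% of the mAG+ counts, 0.573% of mKO2neg, 0.690% of mKO2low and 0.657% of mKO2high. As levels these are 7006 CPM (6909 to 7105) for mAG+, 5729 (5613 to 5847) for mKO2neg, 6897 (6773 to 7023) for mKO2low and 6567 (6404 to 6734) for mKO2high. The mKO2neg gate was lowest. By cell, the share of counts had a median of 0.636% for mAG+, 0.525% for mKO2neg, 0.620% for mKO2low and 0.599% for mKO2high, and single cells ranged from 0.195% to 1.49% over all gates. The spread between cells of a gate was therefore wider than the difference between gates.

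The share of cells with a count was set at equal depth, by thinning each cell to 5000 counts, which left 45 mAG+, 43 mKO2neg, 48 mKO2low and 39 mKO2high cells. Hspa8 was found in every thinned cell of every gate. Hsp90ab1 was found in 97.8% of mAG+ cells and in every cell of the other gates. Hsp90aa1 was found in every mAG+ cell (lower limit 92.1%, exact Clopper-Pearson interval), 90.7% of mKO2neg (77.9% to 97.4%), 95.8% of mKO2low and 79.5% of mKO2high (63.5% to 90.7%). Hsp90b1 was found in 80.0% of mAG+ cells (65.4% to 90.4%), 46.5% of mKO2neg (31.2% to 62.3%), 70.8% of mKO2low and 56.4% of mKO2high. These intervals cover the drawing of cells within 1 sample and are no test between gates. Before thinning, 43 of 48 mAG+ cells and 35 of 48 mKO2neg cells had an Hsp90b1 count.

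Hspa5 was found in 62.2% of thinned mAG+ cells, 69.8% of mKO2neg, 52.1% of mKO2low (37.2% to 66.7%) and 71.8% of mKO2high (55.1% to 85.0%). Hspa9 was found in 27.9% of mKO2neg cells and 59.0% of mKO2high cells, its lowest and highest gates. Hspa4 was found in 15.6% of mAG+ and 37.5% of mKO2low cells, its lowest and highest. Cct2 was found in 45.8% to 51.3% of cells in all 4 gates. At this depth the median cell held counts of 6 members in mKO2neg and of 7 members in each of the other 3 gates.

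**Figure D4:**
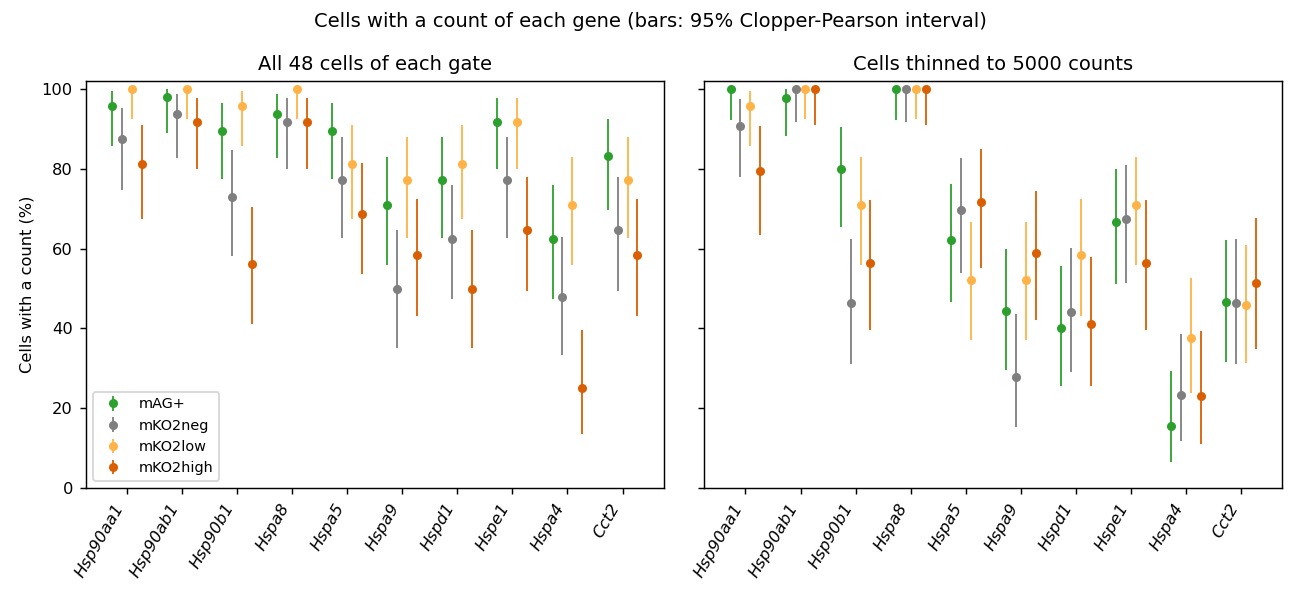
Share of cells with a count of each member in the 4 gates, with exact Clopper-Pearson 95% intervals. The left panel takes all 48 cells of each gate, and the right panel takes cells thinned to 5000 counts. After thinning, Hspa8 is found in every cell, and Hsp90b1 ranges from 80.0% of mAG+ to 46.5% of mKO2neg cells.

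**Figure D5:**
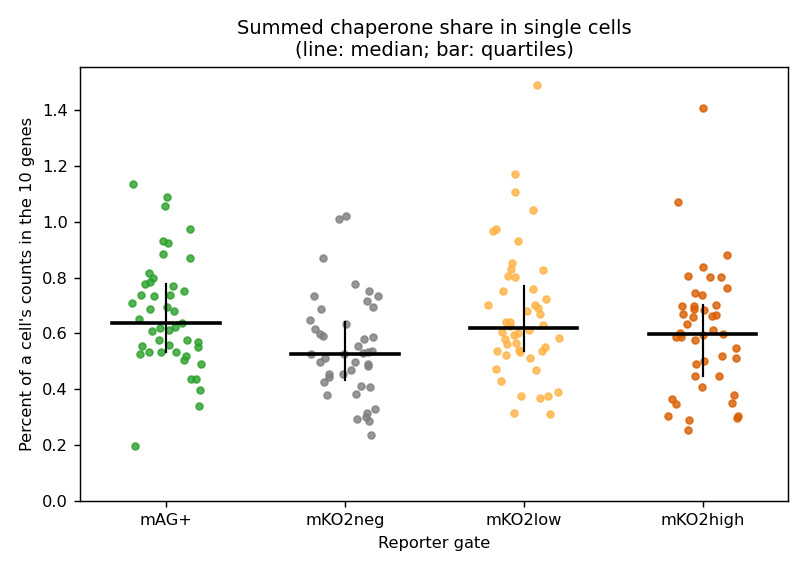
Percent of each cell's counts held by the 10 chaperone genes together, 1 point per cell with at least 1000 counts, with a bar at the median of each gate. The medians lie between 0.525% in mKO2neg and 0.636% in mAG+, inside the spread of cells in every gate.

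Members were weakly correlated from cell to cell. Over the 45 pairs of members, the Spearman rank correlation at equal depth, averaged over the 4 gates, lay between -0.09 and 0.24 with a median of 0.08, and 8 pairs were below 0. Cells of a gate share a library, and counts this sparse keep correlations low. The 10 genes whose counts ran most like the members' sum, out of 1160 genes found in at least 30% of cells of every gate, were Mrpl36 (0.36), Tpi1 (0.34), Ptma (0.30), Phb2 (0.30), Tkt (0.29), Ppia (0.26), Dynll1 (0.26), Actb (0.25), Psma6 (0.25) and Clic1 (0.25), each as a mean correlation over the gates. The median of these 1160 genes was 0.04.

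Partners of the cytosolic HSP90 proteins were mostly within 1.5-fold between gates. Of 11 HSP90 co-chaperones, 2 were at least 1.5-fold higher in mAG+ than in mKO2neg and 0 lower, no larger a share than the 31.2% and 24.3% of all genes. These were Stip1, which bridges HSP70 and HSP90, at 164 CPM in mAG+ and 90.1 CPM in mKO2neg (log2 0.86, 0.59 to 1.14), and Ptges3, the p23 protein that steadies closed HSP90, at 193 CPM in mAG+ cells and 119 CPM in mKO2neg cells (0.70, 0.46 to 0.94). Between mKO2low and mKO2high 0 were higher and 1 lower, beside 29.4% and 25.2% of all genes. The lower one was Ppid, an HSP90-bound prolyl isomerase, at 154 CPM in mKO2low and 241 CPM in mKO2high. The list's median log2 ratio was 0.17 in the first of these comparisons and -0.05 in the second.

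Partners of cytosolic HSP70 went both ways. Of 22 genes of the HSP70 and HSP110 families, their J proteins and exchange factors, 17 were measured. In mAG+ against mKO2neg 3 were higher and 2 lower, beside 31.2% and 24.3% of all genes. In mKO2low against mKO2high 7 were higher and 3 lower, beside 29.4% and 25.2% of all genes. The list medians were 0.05 and 0.23. The J protein gene Dnaja1 stood at 247 CPM in mAG+ and 146 CPM in mKO2neg (0.75, 0.54 to 0.98), and another, Dnajb4, at 35.8 and 72.1 CPM in these gates, 2 times lower in mAG+ on a log2 interval of -1.41 to -0.61. Hsph1, an HSP110 gene, was higher in both libraries, at 23.6 CPM in mAG+ against 11.2 in mKO2neg and at 49.9 CPM in mKO2low against 16.1 in mKO2high. Bag1, an exchange factor, stood at 150.3 CPM in mKO2low and 78.2 CPM in mKO2high (0.94, 0.56 to 1.34). The stress-inducible pair Hspa1a and Hspa1b had 0 counts in all gates, which at 3 counts a gate allows up to 1.07 CPM in mAG+, 1.86 CPM in mKO2neg, 1.76 CPM in mKO2low and 3.21 CPM in mKO2high for counting error. These 2 genes are near-identical copies, so reads that match both could have been left out in counting, and their level is uncertain. Of the 4 small heat shock genes, Hspb6 held most, with 91 counts in mAG+, 33 counts in mKO2neg, 19 counts in mKO2low and 36 counts in mKO2high. Hspb1, Hspb8 and Cryab had 10 counts each in mAG+ and at most 2 in mKO2neg, so they met the minimum of 10 counts through mAG+ and their direction there is no result. The 4 genes summed to 43.3 CPM in mAG+, 21.8 CPM in mKO2neg, 15.9 CPM in mKO2low and 54.6 CPM in mKO2high.

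Among 19 other genes of ER folding and quality control, 3 were higher and 4 lower in mAG+ than in mKO2neg, with a median of -0.01. The shares of all genes there were 31.2% and 24.3%. Sdf2l1, an ER protein that works with BiP and its J proteins, stood at 48.7 CPM in mAG+ and 13.7 CPM in mKO2neg (1.80, 1.18 to 2.55). Dnajc3, a J protein of the ER, stood at 129.7 CPM in mAG+ and 80.8 CPM in mKO2neg (0.68, 0.39 to 0.98). Herpud1, of ER-associated degradation, stood at 98.9 CPM in mAG+ and 169 CPM in mKO2neg (-0.77, -1.02 to -0.53). In mKO2low against mKO2high 3 of 18 measured were higher and 6 lower, with a median of -0.08, beside 29.4% and 25.2% of all genes. Manf, an ER stress protein that binds BiP, was among the higher, at 188 CPM in mKO2low and 65.3 CPM in mKO2high (1.51, 1.13 to 1.94), and so ran against Hspa5. Sel1l, named by the same rule, was among the lower, at 15.3 CPM in mKO2low and 38.5 CPM in mKO2high (-1.29, -2.12 to -0.57). Herpud1 was also lower, at 75.1 CPM in mKO2low and 156 CPM in mKO2high (-1.05, -1.41 to -0.70), so both ran with Hspa5. Calr, the glycoprotein chaperone calreticulin, stood at 486 CPM in mAG+, 351 CPM in mKO2neg, 489.6 CPM in mKO2low and 263 CPM in mKO2high, the same order within each library as Hsp90b1; it was picked after its values were seen.

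The regulators of these responses were measured as transcripts at low levels. In mAG+ against mKO2neg 2 of 9 were higher and 3 lower, beside 31.2% and 24.3% of all genes. Xbp1, the unfolded protein response factor, stood at 41.6 CPM in mAG+ and 117 CPM in mKO2neg (-1.48, -1.84 to -1.15), and Atf6, another such factor, at 29.7 and 5.59 CPM in these gates (2.32, 1.42 to 3.59). Hsf1, the main heat shock factor, was lower in the gate named first in both libraries. It stood at 39.4 CPM in mAG+ against 85.2 in mKO2neg (-1.10, -1.49 to -0.74), and at 52.8 CPM in mKO2low against 115 in mKO2high (-1.11, -1.54 to -0.70). In that second comparison 2 of 8 measured were higher and 2 lower, beside 29.4% and 25.2% of all genes. Xbp1 was the other lower one, at 133 CPM in mKO2low and 224 CPM in mKO2high (-0.74, -1.03 to -0.47). Among the higher was the regulator gene Ern1, at 29.9 CPM in mKO2low and 6.42 CPM in mKO2high (2.10, 1.00 to 3.73).

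Of 9 further genes of mitochondrial folding and proteolysis, 3 were higher and 2 lower in mAG+ than in mKO2neg, and 1 was higher and 4 lower in mKO2low than in mKO2high. Over all genes 31.2% were higher and 24.3% lower in the first of these comparisons, and 29.4% and 25.2% in the second. Afg3l2, a protease subunit of the inner membrane, stood at 14 CPM in mAG+ and 63.4 CPM in mKO2neg (-2.15, -2.75 to -1.64). The nucleotide exchange factors of mortalin split in mKO2low against mKO2high: Grpel1 stood at 42.9 CPM in mKO2low and 117 CPM in mKO2high (-1.43), and Grpel2 at 61.1 CPM in mKO2low and 18.2 CPM in mKO2high (1.71). Of 14 other CCT and prefoldin subunits, 1 was higher and 1 lower in mAG+ than in mKO2neg, beside the same shares of all genes. In mKO2low against mKO2high 4 of 13 measured were higher and 1 lower, again beside the shares above. The CCT subunit Tcp1 stood at 105 CPM in mAG+ and 74.0 CPM in mKO2neg (0.50, 0.19 to 0.82), under 1.5-fold. The prefoldin subunit Pfdn6, whose complex hands actin and tubulin to CCT, stood at 141 CPM in mKO2low and 55.7 CPM in mKO2high (1.33, 0.90 to 1.80).

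Markers of other blood cells were also measured. Myeloid markers (8 genes) summed to between 951 CPM in mAG+ and 1517 CPM in mKO2low, and erythroid markers (7 genes) to between 194 CPM in mKO2neg and 369 CPM in mKO2low, and their part in the chaperone results was not tested. Of 5 myeloid markers measured in mAG+ against mKO2neg, 3 were at least 1.5-fold higher and 2 lower, beside 31.2% and 24.3% of all genes. Their median log2 ratio was 0.62, opposite in direction to the sums of 951 CPM in mAG+ and 1442 CPM in mKO2neg. Several lymphoid markers were highest in mAG+, carried by few cells. Dntt, of early lymphoid cells, stood at 89.9 CPM in mAG+, from 2 cells, at 28.6 CPM in mKO2neg, from 3 cells, and at 0.587 CPM in mKO2low and 10.7 CPM in mKO2high, from 1 cell each. Ebf1, a B cell factor, had 130 counts in mAG+, 4 counts in mKO2neg, 1 count in mKO2low and 7 counts in mKO2high, and Cd79a, a part of the B cell receptor, had 67 counts in mAG+ and 0 in each other gate. Cd79b lay between 70.9 CPM in mKO2neg and 98.0 CPM in mKO2low, Il7r had 1 count in all, and the T cell genes Cd3e and Cd3g had 0. A count of Cd79a or Ebf1 was found in 6 mAG+ cells, which held 17.2% of that gate's counts, and in 1 mKO2neg, 1 mKO2low and 2 mKO2high cells.

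Without the cells with Cd79a or Ebf1, a choice made after the data were seen, the log2 ratio of mAG+ against mKO2neg was 0.70 for Hsp90aa1 and 0.87 for Hsp90b1, still past 1.5-fold. It was -0.77 for Hspa5 and 0.68 for Hspa9, which then passed 1.5-fold. The 1 mKO2neg cell left out held 30 of that gate's 183 Hspa9 counts, the most of any cell there. The Hspa9 value thus rests in part on that cell, and it was smaller without each gate's deepest cell, as given above. For mKO2low against mKO2high the members past 1.5-fold stayed past it, at 0.71 for Hsp90b1, 0.59 for Hspe1, 0.89 for Hspa4 and -0.95 for Hspa5.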

How the data were processed

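The authors deposited counts, whole numbers for each cell and row and unnormalized as tested on the files, with a table that gives each cell's gate. Per the submitters' processing notes the tools were HISAT2, HTSeq 0.11.3 and Seurat and the build mm10, with no role given. The use of strand or molecular identifiers is not given in the labels. The tables held 53378 rows, of which 53273 matched GENCODE M21 by ID and 105 did not, and all columns of cells were used. Each gene was read from the row of the gene before it in that annotation.

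Counts summed by gate were expressed as CPM of that gate. Log2 ratios used a prior count of 1 and genes with at least 10 counts over both gates. Intervals at 95% are exact Poisson for levels, exact conditional binomial for ratios and Clopper-Pearson for shares. A difference of at least 1.5-fold was counted, and the 2-fold count planned beside it was not used. Cells were thinned to 5000 counts for equal depth. Gates are single samples, because no animals or cultures are named, so no test was run. Doublets were not called, since cells were handled singly. The scripts ran on Python 3.11.15, numpy 2.4.6, scipy 1.17.1 and pandas 2.3.3, with edgeR 4.0.16 and DESeq2 1.42.0 in R 4.3.3 for alternative scaling only, and were tested on simulated data.

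The members, gene lists and alternatives were chosen with earlier results of these data known. Named beside the members are up to 4 genes per chaperone list with the largest log2 ratio from mAG+ against mKO2neg and up to 2 from mKO2low against mKO2high, at 50 counts or more, of which a selection is described. One marker, the sum of its list and one alternative that rests on it are not reported here.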

Additional observations from a re-analysis of the deposited data

How the results depend on the processing

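No paired analysis was possible because each gate is 1 sample. Directions of the members past 1.5-fold held under TMM scaling in edgeR, size factors from DESeq2, equal cell weights, a cell quality filter, thinning, leaving out the deepest cell, and a prior count of 0.5, and they reversed only with each gene read from the row of its own label, where mAG+ against mKO2neg gave -2.51 for Hsp90aa1 and mKO2low against mKO2high gave -0.34 for Hspa4. Under that reading the summed CPM of the 10 members was 600.02, 666, 741 and 504 in mAG+, mKO2neg, mKO2low and mKO2high, and the members' median log2 ratio was 0 for mKO2low against mKO2high and 0 for mKO2neg against mKO2low. In the same order of gates the summed CPM was 6692, 5469, 6658 and 6026 with equal weight for each cell, and 6662, 5423, 6596 and 6272 after thinning. Leaving out the deepest cell gave 6886 in mAG+. The members' median was -0.20 for mAG+ against mKO2high after thinning, and -0.45 for mKO2neg against mKO2low without each member's largest cell. Hsp90b1 in mKO2neg against mKO2low was -0.29 without the deepest cells, and Hspa4 in mAG+ against mKO2neg was -0.74 after thinning. Counts of genes at least 1.5-fold different depend on the filter by construction. After thinning, 1574 genes were higher and 1476 lower for mAG+ against mKO2neg, 1414 and 1403 for mKO2low against mKO2high, 1371 and 1335 for mKO2neg against mKO2low, and 1624 and 1643 for mAG+ against mKO2high. At 100 counts or more these were 1484 and 1167, 822 and 856, 947 and 832, and 1692 and 1269. At 1 count or more 6173 were higher for mAG+ against mKO2neg, and the pairs for the others were 5392 and 4843, 4791 and 4886, and 6835 and 5100. The causes were not tested. Depth limits the shares of cells: at 5000 counts a cell Hspa4 was found in 15.6% of mAG+ and 23.1% of mKO2high cells.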
